A study of Mus musculus with 9 samples.

Results

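The type I interferon response genes examined here are 35 genes that cells switch on after they sense interferon alpha or beta, taken as a list of gene symbols and found among the 24062 genes of the deposited count table. All 35 were present, and all 35 were among the 15369 genes with enough counts to be tested. The RNA came from mouse embryonic fibroblasts of the C57BL/6 strain that had been driven into senescence, a durable arrest of the cell cycle, with gamma rays. Day 10 cells were then infected with a lentivirus coding for a short hairpin RNA. The control group, shScr, received a scrambled hairpin, and the shRela-1 and shRela-2 groups each received a different hairpin against Rela, the gene of p65, a subunit of NF-kB. Each group has 3 samples numbered 1 to 3, and all 9 samples share the irradiation and a lentiviral infection. No uninfected or unirradiated sample was analysed here, so levels before either step are not known.

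Type I interferons are secreted proteins that bind the receptor pair Ifnar1 and Ifnar2. The receptor's kinases then activate transcription factors, Stat2 and Irf9 among them, that bind a DNA element called the ISRE, the interferon-stimulated response element, in the promoters of many genes. The products of those genes sense viral RNA, block viral entry, cut or trap viral transcripts, and feed back on the signal. In senescent fibroblasts the pathway is known as a late arm of the secretory programme that responds to DNA in the cytosol, and NF-kB takes part in the induction of the interferon beta gene itself.

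Totals ran from 49774667 to 67963506 counts per sample. Rela, the check of the labels, stood at 85.5, 83.2 and 86.8 CPM (counts scaled to a common library size) in shScr, at 14.1, 13.6 and 13.2 CPM in shRela-1 and at 14.8, 13.5 and 13.4 CPM in shRela-2. Both hairpins therefore lowered their target in every sample, and the difference between them was 0.03 on the log2 scale with a 95% interval of -0.09 to 0.14. The titles of the control samples, and no others, name a numbered dataset, so any batch that goes with that tag cannot be told apart from the control hairpin. Separate cultures are not stated for the replicates, so p-values reflect the spread among these samples, which may be technical. The 12 fibroblast markers summed to between 61767 and 72274 CPM in every sample. The 17 macrophage and blood cell markers summed to 473 to 823 CPM with none at 0, and the cells of origin of that RNA were not analysed. Of 10 epithelial markers 5 averaged under 1 CPM, as did 6 of 8 endothelial ones.

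Of the 9 libraries, 3 lay farthest from the control mean in the interferon response genes. In shRela-1 sample 1 the lowest value of the group was found for 30 of the 35 genes. In shRela-2 sample 1 the highest value of the group was found for 33 genes, and in shRela-2 sample 3 the lowest for 34. The other libraries also had an order in shScr, where sample 1 was highest for 26 genes and sample 2 lowest for 28, and shRela-1 sample 2 was highest of its group for 26. The medians of these libraries were closer to the control mean, as the values by sample further on show. The share of all genes highest or lowest in each sample was not counted, and the 35 genes share each library. These counts are therefore a description of the libraries and not a result about the genes.

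The DNA element named above can be looked for in the promoters of these genes. RefSeq promoters of the GRCm38.p6 assembly, the same coordinates as mm10, run from 250 bases before to 50 bases after a gene's start. They matched 25 of the 35 genes. The core GAAANNGAAA was searched on both strands, and it was found in the promoters of 13 of the 25 genes, or 52%, against 3.99% of 27025 genes with a promoter in the same table. The 13 were Bst2, Ddx58, Eif2ak2, Ifih1, Ifit1, Ifit3, Ifitm3, Isg15, Oas1a, Oas3, Rsad2, Stat2 and Trim30a. The windows of 6 of them follow, chosen to show 3 arrangements, namely a run of matches (Isg15), a spaced pair (Ifit1, Ifit3) and a single match (Oas3, Rsad2, Stat2). Each is written 5′ to 3′ on the gene's own strand and lies before the gene's start, and capitals mark the core or, where the match is on the opposite strand, its reverse complement.
Isg15, chr4:156200860-156200911, minus strand: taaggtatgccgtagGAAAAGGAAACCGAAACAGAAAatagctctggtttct
Ifit1, chr19:34640770-34640828, plus strand: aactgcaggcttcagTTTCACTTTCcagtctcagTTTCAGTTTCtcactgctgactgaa
Ifit3, chr19:34583358-34583431, plus strand: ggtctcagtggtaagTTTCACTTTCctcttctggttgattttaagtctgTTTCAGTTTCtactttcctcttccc
Oas3, chr5:120777710-120777749, minus strand: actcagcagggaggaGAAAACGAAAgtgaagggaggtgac
Rsad2, chr12:26456548-26456587, minus strand: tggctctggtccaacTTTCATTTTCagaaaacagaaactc
Stat2, chr10:128270261-128270300, plus strand: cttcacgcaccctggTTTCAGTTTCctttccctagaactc
In Isg15 the 3 matches overlap, each sharing the 4 bases GAAA with the next. The NF-kB consensus, searched by name on both strands, was found in the promoters of 2 of the 25 genes, Bst2 and Oasl1, or 8%, against 5.14% of all genes. These matches describe letters in a window and not bound sites. The promoters of Oas1b, Oas2, Mx1, Mx2, Usp18, Dhx58, Rtp4, Zbp1, Parp14 and Ifi27l2a were not matched.

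Several of the genes are neighbours. Ifit2, Ifit3 and Ifit1 lie in that order on the plus strand of chromosome 19. Oasl2 and Oasl1 lie 11.0 kb apart on chromosome 5, where Oas2, Oas3, Oas1b and Oas1a form a second cluster. Rsad2 and Cmpk2 are divergently placed on chromosome 12 with 12.8 kb between them. Mx1 and Mx2 are 72.4 kb apart on chromosome 16. Members of the Ifit, Oas and Mx families resemble each other in sequence, so reads may have been split among them, and the library kit does not mark strand. The exons of 6 members (Oasl1, Irf7, Usp18, Dhx58, Ifi35 and Eif2ak2) overlap an exon of a gene on the opposite strand in GENCODE M21, and those of Irf9, Parp14, Herc6 and Rtp4 overlap another gene on the same strand (Rnf31, Gm49730, Gm45193 and Gm45338), so their counts may hold reads of the other gene.

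Per kilobase of exon, levels in shScr spanned from 0.188 CPM for Mx1 to 433 CPM for Ifitm3, with a median of 4.41 CPM per kb. Ifitm3, which blocks viral entry at endosomes, was followed by Bst2 (136 CPM per kb), the tetherin that holds virions at the cell surface, Lgals3bp (93.7 CPM per kb), a secreted glycoprotein, and Isg15 (90.0 CPM per kb), a ubiquitin-like modifier. After these came a gap to Ifi35 (18.8 CPM per kb) and Ifit3 (18.0 CPM per kb). At the other end, Oas3 stood at 0.314 and Oasl1 at 0.509 CPM per kb in shScr. In all, 11 genes were above 10 and 8 were below 1 CPM per kb.

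**Figure D1:**
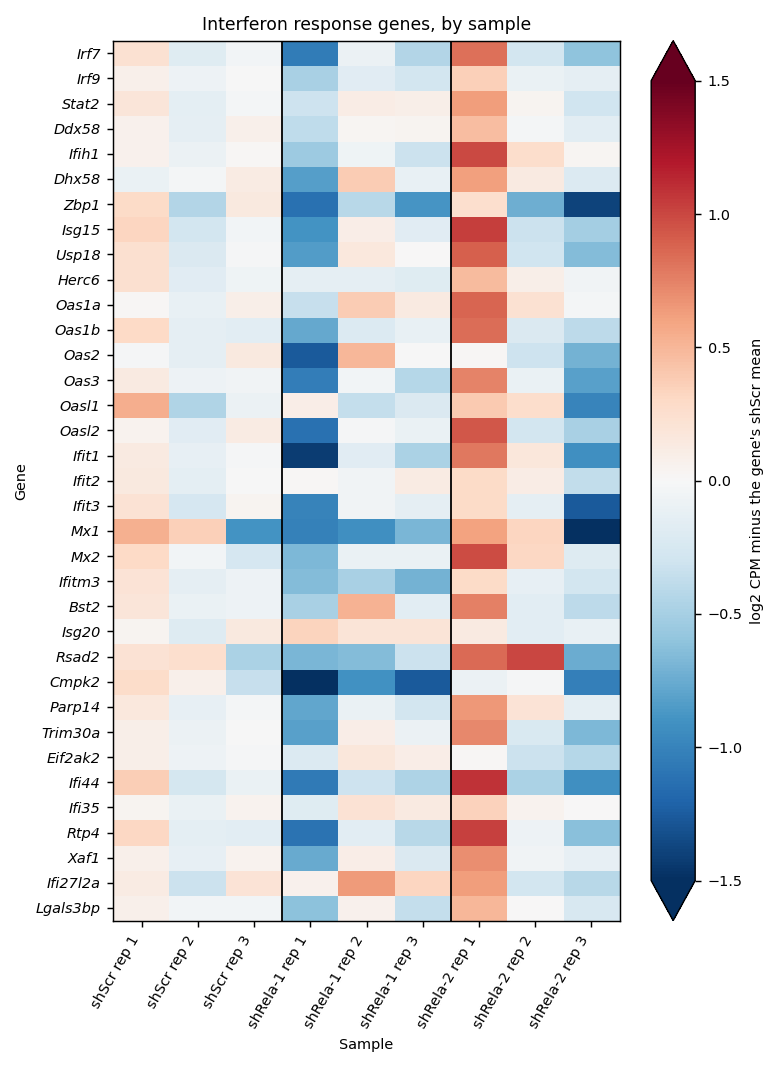
Rows are the 35 interferon response genes ordered by role, columns are the 9 samples, and colour gives log2 CPM minus the gene's mean in shScr, with the scale ending at 1.5 in both directions. The column of shRela-1 sample 1 is mostly blue (lower), that of shRela-2 sample 1 mostly red (higher) and that of shRela-2 sample 3 mostly blue.

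The medians of the interferon response genes lay on opposite sides of 0 with the 2 hairpins, and few single genes passed the test. With shRela-1, 2 of the 35 fell against shScr (Ifitm3 and Cmpk2) and 0 rose by edgeR's quasi-likelihood test at an adjusted p under 0.05, where 12.4% of all genes tested fell and 12.3% rose. At an unadjusted p under 0.05, 3 were lower and 0 higher, beside 2736 lower and 2782 higher of all 15369 genes. DESeq2 called 3 lower and 0 higher, beside 4135 of all genes in either direction. The median log2 fold change of the 35 was -0.28, with 28 below 0 and 7 above, beside a median of 0.00 over all genes. With shRela-2, 0 of the 35 rose and 0 fell against shScr, where 15.4% of all genes rose and 15.4% fell. At an unadjusted p under 0.05 edgeR gave 1 higher, beside 3119 higher and 3071 lower of all genes. DESeq2 called 0, beside 4952 of all genes in either direction. The median of the 35 was 0.13, with 26 above 0. Without shRela-2 sample 1 it was -0.27, with 28 below 0 and 2 members that fell (Eif2ak2 and Zbp1), so its side of 0 rested on that library. Without shRela-2 sample 3 it was 0.36, and 2 members rose (Ifih1 and Rsad2). The fit without shRela-2 sample 1 called 3964 of all genes in either direction, and that without shRela-2 sample 3 called 4182. The shRela-1 median was -0.11 without shRela-1 sample 1 and -0.44 without shRela-1 sample 2. Without shRela-2 sample 1, Irf9 and Zbp1 fell with shRela-1 as well, where 3824 of all genes were called in either direction. In this fit, which leaves out the pairing by replicate number, the shares called against shScr were thus below the background for both hairpins. Counts with the pairing are given further on.

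The standard errors of these genes were large. The median standard error of a log2 fold change was 0.28 over the 35 genes and 0.09 over all genes in the shRela-1 comparison. A difference of the size of the shRela-1 median could therefore not be detected for a typical member, and an uncalled gene is not shown to be unchanged. In a bulk library, fewer cells of a type and less RNA per cell cannot be told apart.

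Compared directly, shRela-2 was above shRela-1 for 30 of the 35 genes, with a median log2 difference of 0.36. Of these, 6 rose (Ifitm3, Ifih1, Cmpk2, Parp14, Irf9 and Rsad2) and 0 fell, against 20.0% of all genes that rose and 19.9% that fell. At an unadjusted p under 0.05, 8 were higher and 2 lower, beside 3693 higher and 3650 lower of all 15369 genes. DESeq2 called 7 higher and 0 lower, beside 6236 of all genes in either direction. The share that rose was near the background, and none fell where about as many of all genes fell as rose. The count of 6 became 2 without shRela-1 sample 1, 2 without shRela-1 sample 3, 2 without shRela-2 sample 1, 3 without shRela-2 sample 2 and 12 without shRela-2 sample 3. Genes called in these fits, in either direction, numbered 5512, 5310, 5375, 5280 and 5488, beside 6134 with all samples. Their shares by direction are not given, so the member counts with a sample left out are a description. The 12 were the 6 and Herc6, Ifit1, Lgals3bp, Mx1, Mx2 and Rtp4. Without shRela-2 sample 1, 3 members were lower (Eif2ak2, Ifi27l2a and Isg20) and the median was 0.02. Eif2ak2 was lower without shRela-1 sample 1, and Isg20 without shScr sample 2. Without shRela-1 sample 2 the count stayed at 6, with Lgals3bp in the place of Rsad2.

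Same-numbered samples of the 3 groups deviated together across all genes, so the fit was also made with the replicate number as a block. With it, 1 member rose (Isg20) and 4 fell (Cmpk2, Ifitm3, Irf9 and Zbp1) with shRela-1, against 20.4% and 18.9% of all genes. With shRela-2, 1 rose (Ifih1) and 1 fell (Eif2ak2), against 22.2% and 22.2%. Between the hairpins 12 were higher with shRela-2 and 2 lower (Eif2ak2 and Isg20), against 25.8% and 26.1% of all genes. The 12 were the 6 named above and Herc6, Ifit1, Lgals3bp, Mx2, Rtp4 and Xaf1. Of the 2 directions, the higher one held most of the members called between the hairpins, where all genes split about evenly. The members share each library, and their median difference between the hairpins was above 0 in number 1 only. It was 1.404, -0.07 and -0.29 for numbers 1 to 3. Without sample 1 of any group, in a fit without the block, 2 were higher and 8 lower, beside 17.9% and 18.2% of all genes.

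**Figure D2:**
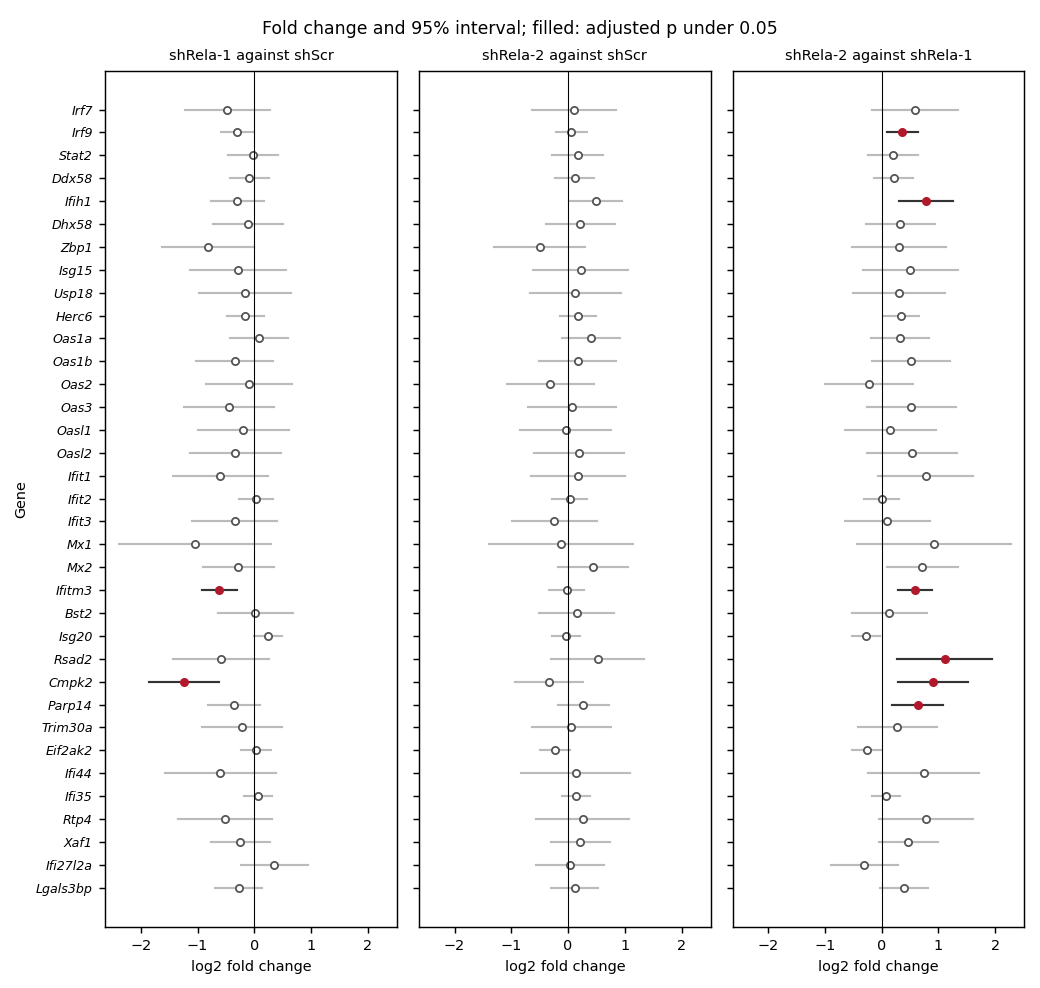
Points are log2 fold changes of the 35 genes in 3 comparisons and lines are their 95% intervals; filled points have an adjusted p under 0.05 in edgeR. The intervals of most genes cross 0, with 2 filled points below 0 for shRela-1 against shScr, none for shRela-2 against shScr, and 6 above 0 for shRela-2 against shRela-1.

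Among the restriction factors at membranes, Ifitm3 gave the smallest adjusted p of the 35 genes. It is annotated at chromosome 7, 141009586 to 141010770, on the minus strand of mm10. Its level was 337, 267 and 278 CPM in shScr, 186, 209 and 179 CPM in shRela-1, and 356, 268 and 241 CPM in shRela-2. All 3 shRela-1 samples lay below the other 6, while the shRela-2 and control samples overlapped. Ifitm3 fell with shRela-1 from a mean of 294 ± 37.9 to 191 ± 15.97 CPM (SD, n = 3), a log2 fold change of -0.62 ± 0.14 (SE, adjusted p = 0.00783 by edgeR). With shRela-2 the mean was 288 ± 60.6 CPM and the log2 fold change -0.03 (adjusted p = 0.909), and the direct difference of shRela-2 over shRela-1 was 0.59 ± 0.14 (adjusted p = 0.00555). Both calls were kept under every alternative run, including each library left out in turn. The other gene of this role, Bst2, was at 138, 114 and 115 CPM in shScr, 86.8, 175 and 110 CPM in shRela-1 and 206, 109 and 93.4 CPM in shRela-2, so its knockdown groups spanned the controls on both sides.

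Cmpk2, a nucleotide kinase whose gene adjoins Rsad2, was the other member that fell with shRela-1. It is annotated at chromosome 12, 26469204 to 26479837, plus strand. Its values were low: 3.55, 3.08 and 2.29 CPM in shScr, 1.01, 1.54 and 1.21 CPM in shRela-1, and 2.74, 2.88 and 1.42 CPM in shRela-2. Every shRela-1 value lay below every control value. The log2 fold change was -1.24 ± 0.28 (adjusted p = 0.00846 by edgeR) with shRela-1 and -0.34 ± 0.27 (adjusted p = 0.391) with shRela-2. Between the hairpins Cmpk2 was higher with shRela-2 by 0.90 ± 0.28 (adjusted p = 0.0257). That last call was lost without shRela-1 sample 1 (adjusted p = 0.0836), shRela-1 sample 3 (0.0777), shRela-2 sample 1 (0.0797) or shRela-2 sample 2 (0.0985). The fall with shRela-1 kept its call in all of those, and had an adjusted p of 0.0520 without sample 1 of every group.

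Rsad2, which codes for viperin, an enzyme that makes a chain-terminating nucleotide, was at 3.43, 3.53 and 2.11 CPM in shScr, 1.82, 1.87 and 2.35 CPM in shRela-1, and 5.35, 5.92 and 1.74 CPM in shRela-2. The first 2 shRela-2 samples were the highest of all 9 and the third was the lowest. The difference of shRela-2 over shRela-1 was 1.11 ± 0.38 on the log2 scale (adjusted p = 0.0389 by edgeR). Leaving out any 1 of the 6 knockdown samples except shRela-2 sample 3 took the adjusted p to between 0.0682 and 0.152. A fit of only the 6 knockdown samples gave an adjusted p of 0.0534. Against shScr neither hairpin gave a call, at -0.59 (adjusted p = 0.312) and 0.52 (0.331). Without shRela-2 sample 3 the value for shRela-2 was 0.90 (adjusted p = 0.0131).

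The RNA sensors of the cytosol are Ddx58 (RIG-I), Ifih1 (MDA5) and Dhx58 (LGP2). Ifih1, at chromosome 2, 62595798 to 62646255, minus strand, was at 18.8, 16.8 and 18.1 CPM in shScr, 12.2, 17.1 and 14.3 CPM in shRela-1, and 35.6, 21.4 and 18.2 CPM in shRela-2. All 3 shRela-2 values lay above all 3 shRela-1 values, with shRela-2 sample 1 far above the rest. The difference between hairpins was 0.79 ± 0.21 (adjusted p = 0.0135 by edgeR) and kept its call under every alternative run. Against shScr the log2 fold change was -0.30 (adjusted p = 0.360) with shRela-1 and 0.49 ± 0.21 (adjusted p = 0.112) with shRela-2. The latter passed with the replicate block (adjusted p = 0.0121) and without shRela-2 sample 3 (0.0309). Ddx58 was between 68.0 and 78.5 CPM in shScr, at 57.4, 76.3 and 76.7 CPM in shRela-1 and at 103, 73.0 and 67.1 CPM in shRela-2. Dhx58 likewise had 2.61 CPM in shRela-1 sample 1 and 7.16 CPM in shRela-2 sample 1 as its extremes. Zbp1, a sensor of Z-form nucleic acid, was at 3.83, 2.30 and 3.45 CPM in shScr, 1.42, 2.32 and 1.68 CPM in shRela-1, and 3.72, 1.87 and 1.17 CPM in shRela-2. Its log2 fold change with shRela-1 was -0.81 ± 0.37 (adjusted p = 0.139 by edgeR), which passed with the replicate block (0.0172) and without shRela-2 sample 1 (0.0444).

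The transcription factors of the response are Irf9 and Stat2, which act at the ISRE, and Irf7, which amplifies interferon alpha production. Irf9 was at 48.1, 43.6 and 45.7 CPM in shScr, 32.5, 40.8 and 37.7 CPM in shRela-1, and 58.7, 42.7 and 41.7 CPM in shRela-2. The shRela-1 values were below all other samples. Irf9 was higher with shRela-2 than with shRela-1 by 0.36 ± 0.12 (adjusted p = 0.0376 by edgeR). That call was lost without shScr sample 3 (adjusted p = 0.0556), shRela-1 sample 1 (0.128), shRela-1 sample 3 (0.0861) or shRela-2 sample 1 (0.110). A fit of only the 6 samples compared also lost the call (0.0656). Its difference from shScr with shRela-1 was -0.31 ± 0.12 (adjusted p = 0.0999), and this passed with the replicate block (0.00865), in DESeq2 (0.0453) and without shRela-2 sample 1 (0.0146). Irf7 reached 33.2 CPM in shRela-2 sample 1 and 9.05 CPM in shRela-1 sample 1, beside 16.5 to 22.0 CPM in shScr. Stat2 reached 129 CPM and 67.2 CPM in the same samples, beside 75.3 to 94.3 CPM in shScr.

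**Figure D3:**
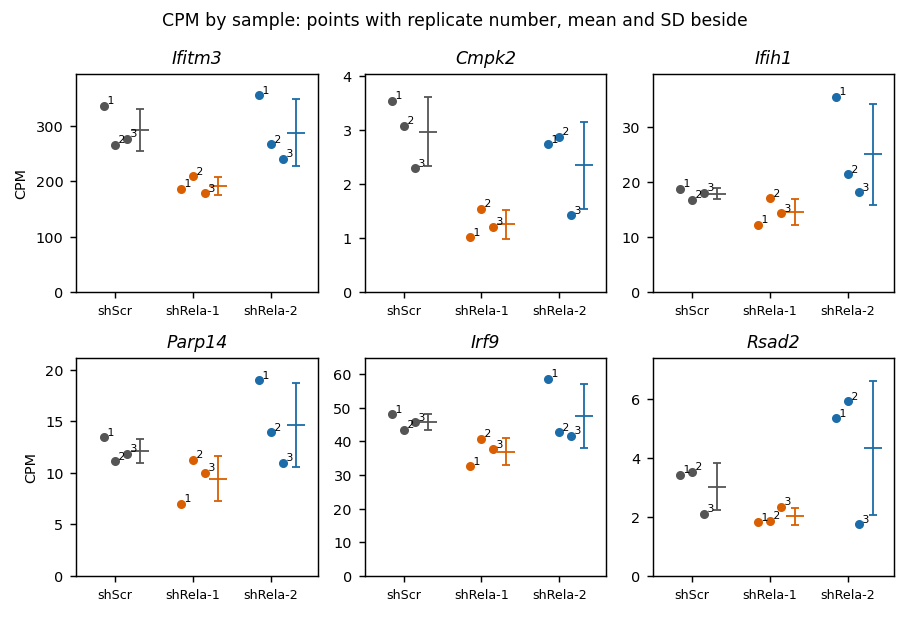
Points are CPM of the 6 genes called in at least 1 comparison, with the sample number beside each point, and the bar at the right of each group gives mean and SD (n = 3). Ifitm3 and Cmpk2 in shRela-1 lie below every control sample, and the wide SD of shRela-2 comes with a high sample 1 in Ifih1, Parp14 and Irf9.

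Isg15 and its partners Usp18, which removes it from proteins, and Herc6, the mouse ligase that attaches it, passed in none of the 3 comparisons in the unblocked fit of all 9 samples. Isg15 was at 83.7, 55.1 and 65.2 CPM in shScr, 35.8, 71.8 and 59.5 CPM in shRela-1, and 137, 53.5 and 47.2 CPM in shRela-2. Sample 1 was thus the lowest of shRela-1 and the highest of shRela-2, and the other 4 knockdown samples, between 47.2 and 71.8 CPM, overlapped the controls. Its log2 fold changes were -0.28 ± 0.38 (adjusted p = 0.648 by edgeR) and 0.22 ± 0.38 (0.711). Between the hairpins it was 0.51 (adjusted p = 0.326), and without sample 1 of every group it was -0.38 (adjusted p = 0.0137). Usp18 ran from 12.6 CPM in shRela-1 sample 1 to 42.2 CPM in shRela-2 sample 1. Herc6 varied little, between 5.67 and 5.86 CPM in shRela-1 and between 6.21 and 8.95 CPM in shRela-2.

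The OAS family binds double-stranded RNA, and its active enzymes make the second messenger that switches on RNase L. None of its 6 members passed in any comparison of all 9 samples. Oasl2, the highest of the 6 per kilobase in shScr (3.25 CPM per kb), was at 21.4, 18.3 and 22.5 CPM in shScr, 9.49, 20.3 and 19.3 CPM in shRela-1, and 39.5, 17.1 and 14.7 CPM in shRela-2. The median of the 6, as log2 CPM minus the shScr mean, was -0.90 in shRela-1 sample 1 and -0.03 and -0.11 in samples 2 and 3. In shRela-2 it was 0.79, -0.16 and -0.60. Oas1a, Oas1b, Oas2, Oas3 and Oasl1 lay between 0.623 and 9.80 CPM in all samples.

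IFIT proteins bind viral RNA that lacks the host's cap methylation. Ifit1 was at 39.3, 32.8 and 35.2 CPM in shScr, 13.3, 31.5 and 25.6 CPM in shRela-1, and 61.7, 40.1 and 18.9 CPM in shRela-2. The shRela-1 values all lay below the controls and the shRela-2 values lay on both sides of them. Ifit3 was also low in shRela-1 sample 1 (15.5 CPM) and lowest in shRela-2 sample 3 (13.0 CPM), with 37.9 CPM in shRela-2 sample 1 and 26.0 to 36.0 CPM in shScr. Ifit2 did not have the low value in shRela-1 sample 1, with 31.5, 30.1 and 33.8 CPM in shRela-1 and 28.1 to 34.4 CPM in shScr. Transcripts of Mx1 and Mx2, genes of a GTPase family, were low, and Mx1 did not exceed 1.004 CPM in any sample, with counts down to 7.

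Parp14, an ADP-ribosyltransferase, was at 13.5, 11.1 and 11.8 CPM in shScr, 7.02, 11.3 and 9.99 CPM in shRela-1, and 19.0, 13.97 and 11.0 CPM in shRela-2. It was higher with shRela-2 than with shRela-1 by 0.63 ± 0.20 (adjusted p = 0.0309 by edgeR). That call was lost without any 1 of shRela-1 samples 1 and 3 and shRela-2 samples 1 and 2 (adjusted p of 0.0957, 0.0656, 0.121 and 0.0550). A fit of only the 6 samples compared also lost the call (0.0531). Eif2ak2, the kinase PKR that halts translation, was at 82.9, 73.9 and 76.9 CPM in shScr, 67.6, 87.5 and 83.4 CPM in shRela-1, and 78.9, 62.1 and 58.1 CPM in shRela-2. Its log2 fold change with shRela-2 was -0.23 ± 0.12 (adjusted p = 0.168 by edgeR). It passed with the replicate block (adjusted p = 0.0291) and without shRela-2 sample 1 (-0.37, adjusted p = 0.0198). Isg20, an exonuclease, was at 8.12, 6.91 and 8.71 CPM in shScr, 9.94, 9.01 and 8.98 CPM in shRela-1 and 8.67, 7.06 and 7.32 CPM in shRela-2. Its shRela-1 values were above all other samples, at a log2 fold change of 0.24 ± 0.11 against shScr (adjusted p = 0.154, and 0.0290 with the replicate block). Trim30a, a ubiquitin ligase that restrains inflammatory signalling, ran from 10.3 CPM in shRela-1 sample 1 to 30.0 CPM in shRela-2 sample 1, beside 17.0 to 19.3 CPM in shScr.

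Of the remaining interferon-induced genes, Ifi44 was at 5.25, 8.89 and 7.94 CPM in shRela-1, all below the controls at 14.2, 9.12 and 10.2 CPM, and at 23.3, 7.92 and 5.79 CPM in shRela-2. Rtp4 and Xaf1 were also lowest in shRela-1 sample 1 (4.96 and 12.9 CPM) and highest in shRela-2 sample 1 (21.8 and 35.2 CPM). Lgals3bp was at 175 and 376 CPM in those samples, beside 259 to 282 CPM in shScr. Ifi35 varied least of this group, from 28.6 to 41.2 CPM over the 9 samples. Ifi27l2a was between 3.54 and 7.38 CPM. None of these 6 passed in the unblocked fit of all 9 samples.

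Samples of 1 group differed more in these genes than in the typical gene of the table. The median SD of log2 CPM over the 35 genes was 0.17 in shScr, 0.35 in shRela-1 and 0.57 in shRela-2, where the median over all genes tested was 0.09, 0.10 and 0.10. The upper quartile of all genes was 0.21, 0.21 and 0.22. A wide spread was also found outside the 35 genes. In the same order of groups, the further interferon-stimulated genes had medians of 0.12, 0.23 and 0.32. The macrophage and blood cell markers had 0.32, 0.30 and 0.31, the epithelial ones 0.50, 0.57 and 0.61, and the endothelial ones 0.27, 0.30 and 0.22. The fibroblast markers (0.10, 0.11 and 0.07) and the induction and signalling genes (0.07, 0.07 and 0.08) were near all genes. In shRela-2, the highest sample was more than 2 times the lowest for 19 of the 35 genes, against 7 in shRela-1 and 2 in shScr. The share of all genes above 2 times was not counted. Ifi44 reached 4.02 times, Rsad2 3.39 times and Ifit1 3.27 times in shRela-2, and Mx1 8.05 times on counts as low as 7. Isg20, at 1.23 times, varied least. The 35 genes share each library, so they are not separate measurements of its deviation, and these values are a description with no test.

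**Figure D4:**
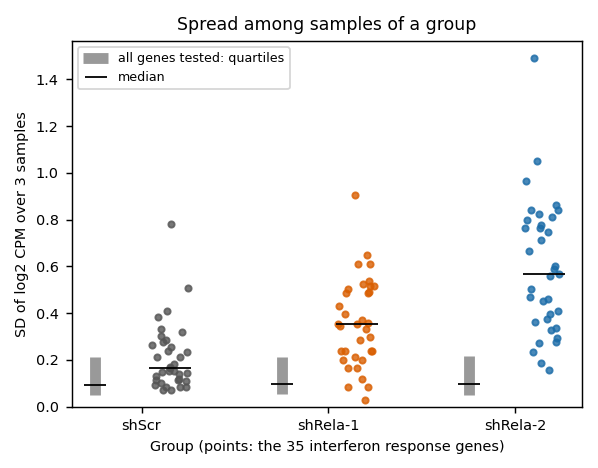
Each point is the SD of log2 CPM over the 3 samples of a group for 1 of the 35 genes, with horizontal marks at medians and grey bars at the quartiles of all 15369 genes tested. The medians of the interferon genes are 0.17, 0.35 and 0.57 from shScr to shRela-2, and those of all genes stay at 0.09 to 0.10.

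Taken sample by sample, the median of the 35 genes, as log2 CPM minus each gene's shScr mean, was 0.15, -0.13 and -0.02 in shScr. It was -0.75, -0.05 and -0.17 in shRela-1 and 0.63, -0.08 and -0.41 in shRela-2. The median over all genes was within 0.01 of 0 in every sample. Sample 1 was above its group's mean for 33 of the 35 genes in shScr and for 35 in shRela-2, and below it for 32 in shRela-1. Over all 15369 genes the matching numbers were 7705, 7587 and 7330. When samples were compared within a number, the median difference of shRela-1 from shScr was -0.90, 0.10 and -0.13 for numbers 1 to 3. For shRela-2 it was 0.51, 0.04 and -0.37. Between the hairpins it was 1.404, -0.07 and -0.29, with 34, 13 and 8 of the 35 genes higher with shRela-2. Of all 15369 genes, 7519, 7876 and 7655 were higher. The difference between hairpins in number 1 was thus opposite in sign to those in numbers 2 and 3. Only 6 genes (Cmpk2, Irf9, Parp14, Ifih1, Herc6 and Ifitm3) were higher with shRela-2 in all 3 numbers, and Isg20 alone was lower in all 3. The share of all genes with 1 direction in all 3 numbers was not counted. The agreement of these genes is therefore a description and not a result about them.

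Without sample 1 of any group, an alternative chosen after the data were seen, most calls between the hairpins were lower with shRela-2. With shRela-2, 0 members rose and 6 fell against shScr (Eif2ak2, Ifi44, Oasl2, Trim30a, Usp18 and Zbp1), beside 13.1% and 13.6% of all genes, with a median of -0.16. With shRela-1, 1 rose (Eif2ak2) and 2 fell (Ifitm3 and Irf9), beside 10.6% and 11.5% of all genes, with a median of -0.01. Between the hairpins 2 were higher with shRela-2 (Ifih1 and Ifitm3) and 8 were lower (Bst2, Eif2ak2, Ifi27l2a, Isg15, Oas2, Oasl2, Trim30a and Usp18), beside 17.9% and 18.2% of all genes, with a median of -0.15. The counts of 6 and 8 of 35 that were lower are close to those shares.

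**Figure D5:**
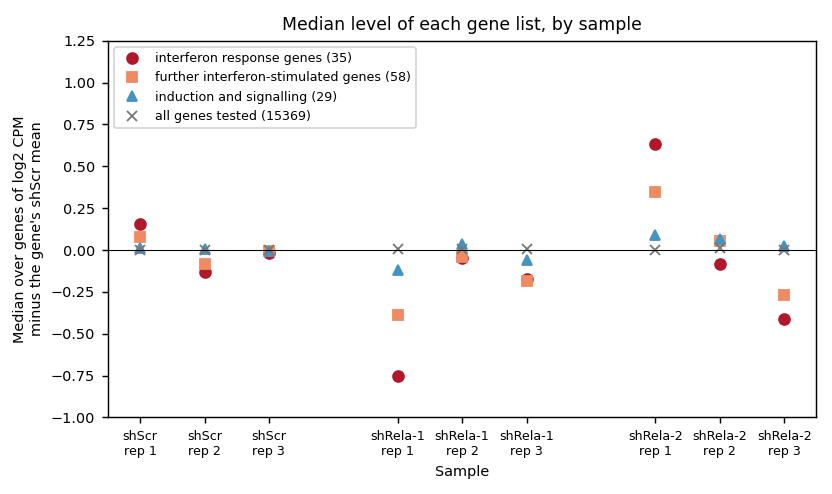
Each point is the median over a gene list of log2 CPM minus the gene's shScr mean, for 9 samples. The interferon response genes run from -0.75 in shRela-1 sample 1 to 0.63 in shRela-2 sample 1, the further interferon-stimulated genes have the same 2 samples at their ends, at -0.39 and 0.35, and all genes stay at 0.

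The macrophage and blood cell markers were ordered otherwise within groups. Their median deviation from the group mean was -0.27, 0.32 and -0.07 in shScr, -0.26, 0.31 and -0.03 in shRela-1 and -0.26, 0.33 and -0.05 in shRela-2. It thus followed the sample number in all groups, whereas the interferon genes were low in shRela-1 sample 1 and high in shRela-2 sample 1. Between groups, their median difference of shRela-2 from shScr was -0.21, -0.24 and -0.19 for numbers 1 to 3, with 16, 15 and 14 of the 17 lower. The fibroblast markers were higher with shRela-1 than with shScr for 11 of 12 in each number, by medians of 0.12, 0.16 and 0.10. The part of the markers, or of a batch tied to the numbers, in the members' values was not tested.

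Upstream of the response, transcripts of the interferons themselves were near the limit of detection. Of 17 listed ligand genes, 7 interferon alpha genes had 0 counts in all 9 samples, and 9 more had too few to be tested, with no more than 6 counts in a sample, while Ifnz was tested and passed in no comparison. Ifnb1, the interferon beta gene, had 0, 0 and 0 counts in shScr, 2, 0 and 0 in shRela-1 and 2, 2 and 0 in shRela-2, where a count of 0 allows up to 3. At this depth no difference in ligand transcripts was detectable. Both receptor chains were plainly expressed. Ifnar1 was at 80.4, 81.9 and 81.6 CPM in shScr, 78.6, 73.5 and 73.3 CPM in shRela-1, and 81.8, 82.3 and 79.4 CPM in shRela-2. Its level fell by 0.11 on the log2 scale with shRela-1 (adjusted p = 0.0417 by edgeR). That call was lost without any 1 of 8 of the 9 samples, all but shRela-1 sample 1, at adjusted p of 0.0535 to 0.138. It was also lost in DESeq2 (adjusted p = 0.0522) and, in edgeR, with no filter (0.0720) and with only the 6 samples compared (0.0690). The call was kept in edgeR with the replicate block (adjusted p = 0.0132), with RLE scaling (0.0435) and without sample 1 of every group (0.0283). Ifnar2 stayed between 40.4 and 47.3 CPM. Of the 3 ligand and receptor genes tested, 1 was called higher with shRela-2 than with shRela-1, beside 20.0% of all genes.

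Of 29 genes of interferon induction and signalling, 2 rose and 7 fell with shRela-1, beside 12.3% and 12.4% of all genes. With shRela-2, 6 rose and 2 fell, beside 15.4% in each direction. Between the hairpins 10 were higher and 2 lower with shRela-2, beside 20.0% and 19.9%. Ptpn11, the phosphatase SHP2, fell with shRela-1 from a mean of 326 to 231 CPM (log2 fold change -0.50, adjusted p = 1.79e-05) and was at 334 CPM with shRela-2. Jak1, a kinase of the receptor, fell from 255 to 197 CPM (-0.37, adjusted p = 3.29e-05) with shRela-1 and was at 265 CPM with shRela-2. Irf5 fell with both hairpins, from 7.94 to 5.55 CPM (-0.51, adjusted p = 0.00135) and to 4.80 CPM (-0.73, adjusted p = 1.27e-04). Tmem173, which codes for the DNA-sensing adaptor STING, rose with shRela-2 from 28.2 to 41.2 CPM (0.55, adjusted p = 0.00815) and was at 22.4 CPM with shRela-1 (-0.33, adjusted p = 0.0886, but 1.25e-05 with the replicate block, 0.0345 in DESeq2 and 0.0490 without shRela-1 sample 1).

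A further 58 interferon-stimulated genes outside the 35 were tested. With shRela-1, 0 rose and 7 fell, beside 12.3% and 12.4% of all genes, with a median of -0.20. With shRela-2, 4 rose and 2 fell, beside 15.4% in each direction, with a median of 0.06. Between the hairpins 14 were higher and 2 lower with shRela-2, beside 20.0% and 19.9%, with a median of 0.28. With the replicate block these counts were 4 and 15 (beside 20.4% and 18.9%), 12 and 5 (22.2% in each direction), and 27 and 5 (25.8% and 26.1%). Ifi30, a lysosomal thiol reductase, fell with shRela-1 from 47.2 to 39.0 CPM (log2 fold change -0.28, adjusted p = 0.00198 by edgeR) and rose with shRela-2 to 62.7 CPM (0.41, adjusted p = 1.24e-04). Mlkl, the executor of necroptosis, fell with shRela-1 from 10.6 to 7.69 CPM (-0.46, adjusted p = 0.0111) and was at 11.7 CPM with shRela-2. Ifi47, a GTPase, fell with both, from 6.20 to 4.67 CPM (-0.41, adjusted p = 0.0172) and to 4.07 CPM (-0.60, adjusted p = 0.00167), the first of which was lost without shScr sample 1 (adjusted p = 0.0653) or shRela-1 sample 1 (0.0649). Pnpt1, a mitochondrial RNA exonuclease, rose with shRela-2 from 32.5 to 38.9 CPM (0.26, adjusted p = 0.0302), which was lost without shScr sample 1 or 3 or shRela-2 sample 1 or 2 (adjusted p of 0.0662, 0.105, 0.0983 and 0.0568).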

How the data were processed

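RNA of 9 libraries (TruSeq RNA v2, which does not mark strand) was sequenced, and the authors' deposited table holds raw counts, with genes named by symbol and 1 column per sample. Tools named in the submitters' processing notes, without roles, are featureCounts 1.4.6, Subread, Bowtie2 2.2.6 and TopHat2 2.0.14, with the build mm10. The annotation behind the counts is not stated. In the deposited counts the value 1 occurs 2764 times and 2 occurs 7984 times, so mates of a pair may have been counted separately, and depth may be overstated.

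Groups were taken from the titles. Genes were filtered by filterByExpr (15369 of 24062 kept), scaled by TMM (factors 0.975 to 1.02) and fitted with 1 mean per group by edgeR 4.0.16 (glmQLFit, glmQLFTest, two-sided) in R 4.3.3. P-values were adjusted by Benjamini-Hochberg over all genes tested, and an adjusted p under 0.05 is called rose or fell. Log2 CPM for deviations used a prior count of 2. Alternatives were DESeq2 1.42.0, RLE scaling, no filter, only the 6 samples compared, a replicate block, each sample left out, and sample 1 left out of every group. Replicate pairs differed by a chi-square per degree of freedom of 11.9 to 112, more than counting noise alone, so each was counted as its own sample. This does not show that the replicates were separate cultures.

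Replicate numbers come from the titles. Deviations from group means over all genes correlated at 0.189 to 0.415 in all 9 pairs of same-numbered samples. Pairs that differed in both number and group gave -0.306 to 0.0459, and pairs within a group gave -0.640 to -0.267. Deviations within a group cancel out, so part of the negative values is forced. The positive values of all 9 same-numbered pairs were taken to mean that the numbers pair the samples. The labels state no block, so the main fit left the pairing out and the blocked fit was an alternative. The choice matters, since the counts between the hairpins were 6 and 0 without the block and 12 and 2 with it. Over the 35 genes alone the same-number values ran from -0.452 to 0.710, with 4 of 9 over 0.1. The 35 genes, the 3 pathway lists and the marker lists were chosen with earlier results of these data known. Values in all samples are given for genes called in at least 1 comparison, and up to 4 called genes per pathway list with the smallest p are named. The values of 1 listed gene are not reported here. Isg15, Isg20, Zbp1 and Eif2ak2, and other genes given only as CPM, were chosen after their values were seen. Exon lengths are from GENCODE M21 and promoters from RefSeq.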

Additional observations from a re-analysis of the deposited data

Results flagged for a closer look

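For 6 genes the 2 hairpins against Rela, whose own difference in Rela was 0.03 on the log2 scale, gave different levels by a test of the difference itself (edgeR, 3 samples per hairpin, shRela-2 minus shRela-1 on the log2 scale). The difference was 0.59 for Ifitm3, with shRela-2 higher in all 3 numbers, 0.79 for Ifih1 and 0.90 for Cmpk2, also in all 3 numbers. It was 0.63 for Parp14 and 0.36 for Irf9, again in all 3 numbers. For Rsad2 it was 1.11, with sample 3 of shRela-2 the lowest of all 9 samples. The 6 genes were picked by this difference in the same samples, so the agreement over numbers is a description and not further support. Without sample 1 of each group, 2 of the 6 (Ifih1 and Ifitm3) kept the call. Those 2 also kept it with each sample left out in turn. Cmpk2, Parp14, Irf9 and Rsad2 each lost it in several of those fits, as given above.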

How the results depend on the processing

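Counts of members that rose and fell are given in that order for shRela-1 against shScr (0 and 2), shRela-2 against shScr (0 and 0) and shRela-2 against shRela-1 (6 and 0). RLE scaling, DESeq2 and no filter on low counts left each count within 1.5 times. The replicate block gave 1 and 4, 1 and 1, and 12 and 2. The members concerned are named in the report. Among the other genes with a printed fold change, the block changed the call of Tmem173 with shRela-1 and no other. Fits of only the 6 samples compared gave 4 that fell with shRela-1 and 3 that rose between the hairpins. These fits called 3491 and 5790 of all genes in either direction. With each sample left out in turn, the counts that rose were 0 to 0, 0 to 2 and 2 to 12, and the counts that fell were 2 to 4, 0 to 2 and 0 to 3. Genes called in those fits, in either direction, numbered 2745 to 3824, 3766 to 4757 and 5280 to 6152. Without sample 1 of any group, an alternative chosen after the data were seen, the member counts were 1 and 2, 0 and 6, and 2 and 8. In that alternative Isg15 changed sign in each comparison, to 0.13, -0.26 and -0.38. With 1 sample left out, 4 uncalled log2 fold changes crossed 0. They ran from -0.21 to 0.087 for Ifitm3 and from -0.43 to 0.49 for Isg15 with shRela-2 against shScr, and from -0.020 to 0.0525 for Rela and from -0.15 to 0.77 for Isg15 between the hairpins. The cause was not tested. The standard errors of low genes such as Mx1 and the 3 samples per group limit what could be called.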
